A study of Sus scrofa with 6 samples.

Results

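The genes described here are caspases, the proteases that carry out apoptosis, together with activators and inhibitors of these proteases and a death factor that acts without them. They were taken by symbol, as a list of 8: CASP2, CASP6, CASP8, CASP9, APAF1, AIFM1, XIAP and BIRC2. Of these, 7 were matched to 1 row each among the 25880 Ensembl genes of the count files. The identifier that the name table gives for BIRC2 is not among those rows, so BIRC2 was not analysed here. The data came from oocytes of the pig (Sus scrofa) arrested in the second meiotic division (MII), in 3 libraries from oocytes exposed to malathion and 3 libraries from control oocytes. Malathion, an organophosphate insecticide, was given at 1 mM in the in vitro maturation medium, diluted from a 0.75 M stock in DMSO, and the labels do not say whether control medium held DMSO. All 6 libraries share their origin in slaughterhouse ovaries, whose antral follicles gave cumulus-oocyte complexes, and all were made from polyadenylated RNA by a modified Smart-seq2 protocol. How many oocytes went into a library, and whether replicates came from separate cultures, is not stated, so the p-values reflect how far these samples scatter, which may be technical scatter only.

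Apoptosis runs along an extrinsic and an intrinsic route. In the extrinsic route, death receptors at the cell surface bring initiator CASP8 molecules together. In the intrinsic route, cytochrome c leaves the mitochondria and binds APAF1, which assembles into the apoptosome and switches on CASP9. Initiators then cleave executioner caspases, among them CASP6, which cut proteins throughout the cell, and XIAP binds caspases and blocks them. In the ovary, caspases are known for their part in follicle atresia and in the fragmentation of aged or damaged eggs, and CASP2 is known from mouse as a caspase used in oocyte death. A mature oocyte makes little new RNA, so its mRNA is mostly a store laid down during growth, and a transcript level does not show whether the protease is active.

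The libraries were uneven in both groups. Total gene counts lay between 25816040 and 42312341 in malathion libraries and between 27105849 and 29471856 in control libraries. Malathion replicate 3 and control replicate 3 stood apart, with 8492 and 8344 genes detected, against 12211 to 14707 in the other libraries. The 10 of 12 listed oocyte markers found in the files were detected in every library, at a summed level of 4420 and 4290 CPM (counts scaled to 1000000 gene counts) in malathion replicate 3 and control replicate 3 and of 31000 to 84400 CPM elsewhere. Different markers made up those sums: ZP2 and MOS stood at 2160 and 1460 CPM in malathion replicate 3, against 23.9 and 2.85 CPM in control replicate 3, and BTG4 at 521 CPM against 2880 CPM. Cumulus and granulosa markers (13 of 15 found) summed to 66.1 to 729 CPM in malathion libraries and to 36.1 to 655 CPM in control libraries, most of it VCAN and KITLG, and AMH was at 0 in all 6. Those of blood, endothelium, theca and stroma reached 21.5 CPM at most in malathion libraries and 20.5 CPM in control libraries, with CYP17A1 and CDH5 at 0. Fewer cells of a type and less RNA per cell cannot be told apart in such libraries. Fold changes of the tested genes and lists below are also given without both replicate 3 libraries. Leaving out control replicate 2 moved the median log2 fold change over all genes from −0.08 to 0.22, so values without that library are to be read against 0.22. That median was −0.235, −0.25 and −0.0915 without malathion replicate 1, 2 or 3. It was −0.0312 without control replicate 1 and −0.194 without control replicate 3. Values without 1 of these libraries are to be read against its median.

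None of the genes described here passed the test of malathion against control. The test was edgeR's quasi-likelihood test with Benjamini-Hochberg adjustment over the 10678 genes that passed a filter on low counts, at an adjusted p of 0.05. It called 0% of all tested genes (smallest adjusted p 0.9998), and 383 genes, or 3.59%, had an unadjusted p under 0.05. DESeq2, which gave a p to 9559 of them, and limma-voom also called 0 genes and left 227 and 110 genes under 0.05 before adjustment. CASP2, CASP6, APAF1, AIFM1 and XIAP passed the filter. CASP8 and CASP9 did not, and were at or near 0 in most libraries. In CPM, malathion and control values overlapped for each of the 7 genes, as they did for all but 0.749% of tested genes.

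**Figure D1:**
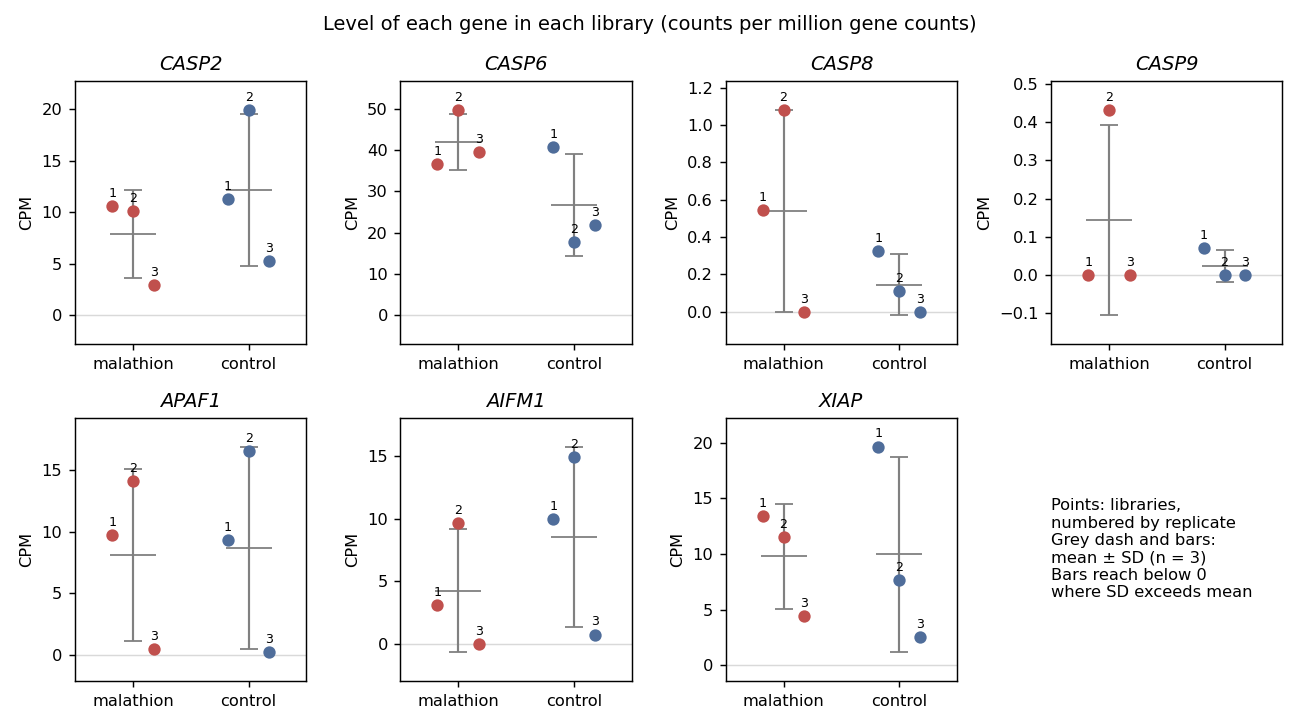
Level of the 7 genes in CPM (vertical axes, linear, a different range in each panel) in malathion libraries (red) and control libraries (blue); numbers give the replicate, and grey dashes with bars give mean ± SD (n = 3). APAF1 and AIFM1 lie near 0 in both replicate 3 libraries, and CASP6 is the only one of the 5 tested genes whose lowest library, at 17.7 CPM, is control replicate 2.

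CASP2 (ENSSSCG00000016464), an initiator caspase, stood at 10.7, 10.1 and 2.95 CPM in malathion replicates 1, 2 and 3, against 11.3, 20.0 and 5.26 CPM in control replicates 1, 2 and 3. Control replicate 2 was the highest library and malathion replicate 3 the lowest, and the groups overlapped. The means were 7.91 ± 4.30 CPM in malathion and 12.2 ± 7.39 CPM in control libraries (SD, n = 3 each). Its log2 fold change, malathion over control on counts scaled by TMM (trimmed mean of M values, which assumes that most genes keep their proportions), was −0.67 ± 1.13 (SE, edgeR adjusted p = 0.9998). It was −0.28 without both replicate 3 libraries and turned to 0.94 without control replicate 3. Set against the control library of the same number, CASP2 was lower in malathion in all 3 pairs, with log2 ratios of −0.09, −0.98 and −0.82 in replicates 1, 2 and 3. Such a run of 3 lower pairs was found for 1561 of the 10678 tested genes, or 14.6%. The median log2 ratios over all tested genes were −0.09, −0.44 and 0 in replicates 1, 2 and 3. Among those genes the ratios of CASP2 lay at percentiles 50.3, 34.7 and 23.3.

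CASP8 and CASP9, the initiators of the extrinsic and intrinsic routes, were barely detected. CASP8 (ENSSSCG00000028157) had 14, 30 and 0 counts in malathion replicates 1, 2 and 3, against 9, 3 and 0 counts in control replicates 1, 2 and 3. These are 0.542 and 1.08 CPM in malathion replicates 1 and 2 and 0.324 and 0.111 CPM in control replicates 1 and 2. Malathion replicate 2 held the most, and the zeros of malathion replicate 3 and control replicate 3 allow levels of up to 0.0709 and 0.102 CPM (3 counts of the total). CASP9 (ENSSSCG00000003460) had 12 counts in malathion replicate 2 (0.432 CPM) and 0 in malathion replicates 1 and 3, against 2 counts in control replicate 1 (0.0720 CPM) and 0 in control replicates 2 and 3. In the RefSeq gene table its span overlaps that of CELA2A. Only whole spans were compared, and how reads in an overlap were counted is not given, so the count of CASP9 may be affected. Without the filter on low counts, edgeR gave log2 fold changes of 1.75 ± 2.30 for CASP8 and 2.08 ± 2.52 for CASP9 (SE, adjusted p = 1 for both). Of the 13 cumulus and granulosa markers found, 7 were also at their highest in malathion replicate 2, among them CYP11A1 at 81.6 CPM, against 0.0236 to 22.1 CPM elsewhere. The others were highest in other libraries or at 0, with VCAN, KITLG and TNFAIP6 highest in malathion replicate 1, NR5A2 in control replicate 2 and FSHR in control replicate 1. The part of such cells in the CASP8 and CASP9 counts was not tested.

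APAF1 (ENSSSCG00000000884), the scaffold of the apoptosome, differed more by replicate number than by group. It stood at 9.72, 14.1 and 0.544 CPM in malathion replicates 1, 2 and 3, against 9.32, 16.5 and 0.271 CPM in control replicates 1, 2 and 3. In both groups replicate 2 was the highest library and replicate 3 the lowest, and the groups overlapped. That order was not particular to APAF1, since AIFM1 had it too, and both replicate 3 libraries had fewer genes detected. Means were 8.12 ± 6.91 CPM in malathion and 8.71 ± 8.15 CPM in control libraries (SD, n = 3 each). The log2 fold change was 0.36 ± 1.14 (SE, edgeR adjusted p = 0.9998), 0.17 without both replicate 3 libraries, and −0.11 when library totals alone set the scale. Over all tested genes that scaling moved the median by −0.26, and APAF1 stood 0.23 above that median there and 0.43 above it with TMM. The log2 ratios within pairs were 0.06, −0.23 and 0.85 in replicates 1, 2 and 3. In RefSeq its span overlaps that of IKBIP. How reads in the overlap were counted is not given, so the count of APAF1 may be affected.

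CASP6 (ENSSSCG00000009140), an executioner caspase that cleaves nuclear lamins, kept its level in both replicate 3 libraries. It stood at 36.7, 49.8 and 39.5 CPM in malathion replicates 1, 2 and 3, against 40.8, 17.7 and 21.8 CPM in control replicates 1, 2 and 3. Malathion replicate 2 was the highest library and control replicates 2 and 3 the lowest, while control replicate 1 lay among the malathion libraries, so the groups overlapped. Means were 42.0 ± 6.86 CPM in malathion and 26.8 ± 12.3 CPM in control libraries (SD, n = 3 each). The log2 fold change was 0.86 ± 1.40 (SE, edgeR adjusted p = 0.9998), and 0.66 without both replicate 3 libraries. Leaving out 1 of these 2 libraries alone moved it much further, to −1.73 without malathion replicate 3 and to 3.27 without control replicate 3. Their TMM factors of 0.138 and 0.141, against 2.25 to 3.59 in the other libraries, put CASP6 at 286 normalised CPM in malathion replicate 3 and 155 in control replicate 3, and at 4.97 to 18.6 elsewhere. Within pairs the log2 ratios of CASP6 were −0.15, 1.49 and 0.86 in replicates 1, 2 and 3.

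AIFM1 (ENSSSCG00000012657) encodes apoptosis-inducing factor, a flavoprotein of the mitochondrial intermembrane space that helps build the respiratory chain and can move to the nucleus to promote DNA cleavage without caspases. It stood at 3.10, 9.65 and 0.0236 CPM in malathion replicates 1, 2 and 3, against 9.97, 14.9 and 0.746 CPM in control replicates 1, 2 and 3. Each malathion library lay under the control library of the same number, as for 14.6% of tested genes. The groups as a whole overlapped, since control replicate 3 lay under malathion replicates 1 and 2. In malathion replicate 3 the value rests on 1 count, against 22 counts in control replicate 3, a CPM ratio of 0.0317 with a 95% exact counting interval of 0.000767 to 0.196. Means were 4.26 ± 4.92 CPM in malathion and 8.55 ± 7.20 CPM in control libraries (SD, n = 3 each). The log2 ratios within pairs were −1.66, −0.63 and −3.17 in replicates 1, 2 and 3. They use a prior count of 2, which shrinks ratios of few counts, so the last is milder than the CPM ratio above.

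These pair ratios of AIFM1 lay at percentiles 5.81, 44.3 and 5.85 of all tested genes. Its log2 fold change was −1.37 ± 1.31 (SE, 95% interval −4.18 to 1.44, edgeR adjusted p = 0.9998, unadjusted p = 0.314). After TMM scaling the groups parted, at 1.38, 3.61 and 0.171 normalised CPM in malathion replicates 1, 2 and 3 and 4.18, 4.19 and 5.31 normalised CPM in control replicates 1, 2 and 3. Control replicate 3 was the lowest control in CPM, at 0.746 CPM from 22 counts. Its TMM factor of 0.1405 made it the highest value after scaling. In normalised CPM the groups did not overlap for 302 tested genes, or 2.83%, and AIFM1 was the only one of the 5 tested genes among them. Its fold change was below 0 under each of the 12 alternatives run, at −0.74 without both replicate 3 libraries, −0.84 without malathion replicate 3, −2.48 without malathion replicate 2 and −1.01 where library totals set the scale. None of these passed the test. The alternatives reuse the same 6 libraries or part of them, so they are not separate evidence. How many of all tested genes kept their sign throughout was not counted. The median over all tested genes was itself −0.335 with library totals and −0.25 without malathion replicate 2.

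**Figure D2:**
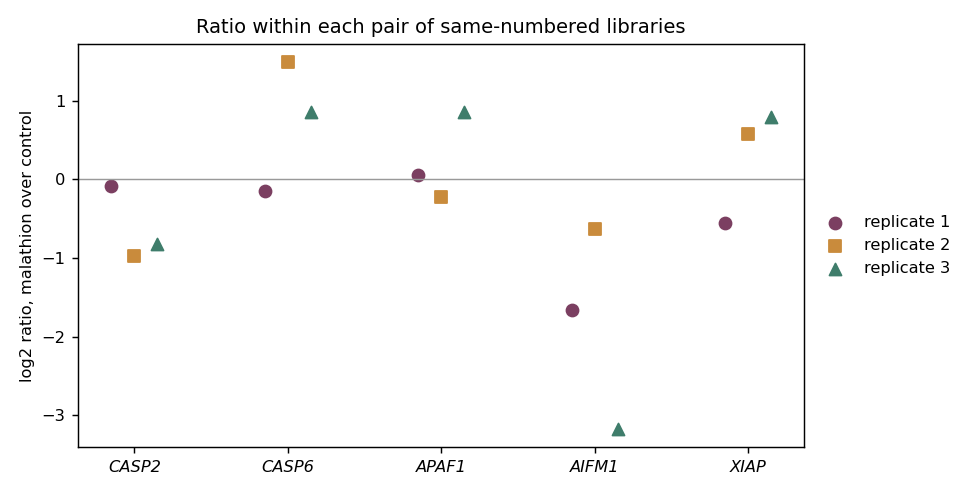
Log2 ratio of malathion to control CPM (vertical axis, prior count 2, library totals) for the 5 tested genes within each pair of same-numbered libraries. AIFM1, at −1.66, −0.63 and −3.17, and CASP2, at −0.09, −0.98 and −0.82, lie below 0 in all 3 pairs, as do 14.6% of tested genes. The other 3 genes have pairs on both sides of 0.

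XIAP (ENSSSCG00000025028), which binds and blocks initiator and executioner caspases, stood at 13.4, 11.5 and 4.44 CPM in malathion replicates 1, 2 and 3, against 19.6, 7.67 and 2.54 CPM in control replicates 1, 2 and 3. The highest library and the lowest were both controls, replicates 1 and 3, so the malathion values lay within the control range. Means were 9.78 ± 4.72 CPM in malathion and 9.96 ± 8.78 CPM in control libraries (SD, n = 3 each). The log2 fold change of 0.58 ± 1.12 (SE, edgeR adjusted p = 0.9998) came to −0.02 without both replicate 3 libraries, −0.03 with library totals alone and −0.85 without malathion replicate 3. Relative to the median of all tested genes XIAP stood at 0.65 with TMM and 0.31 with library totals. The log2 ratios within pairs were −0.55, 0.58 and 0.79 in replicates 1, 2 and 3. The RefSeq table places 2 genes with no assigned name across the span of XIAP. How reads in the overlap were counted is not given, so the count of XIAP may be affected.

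**Figure D3:**
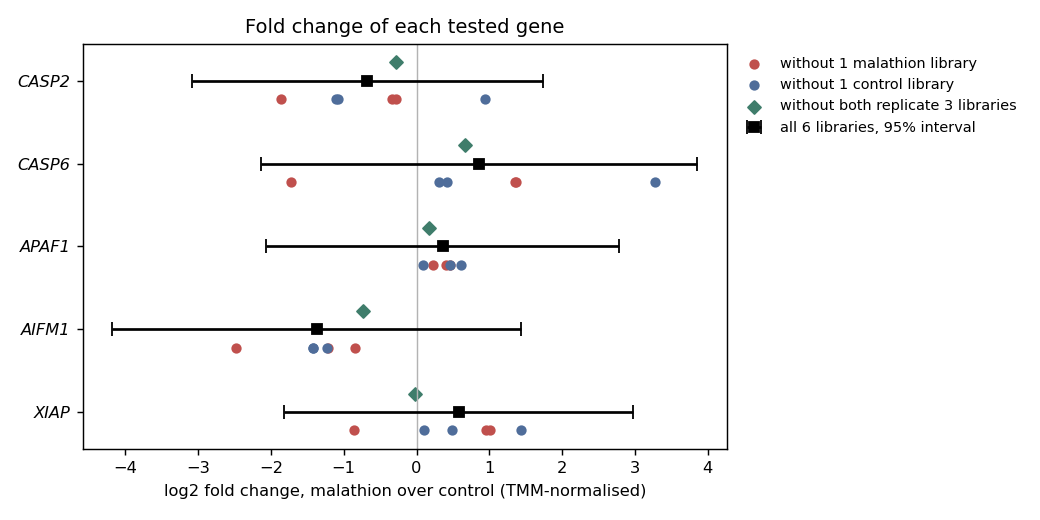
Log2 fold change, malathion over control on TMM-normalised counts (horizontal axis), of the 5 tested genes. Black squares with bars are the values over all 6 libraries with 95% intervals, circles leave out 1 malathion (red) or 1 control (blue) library, and green diamonds leave out both replicate 3 libraries; all 5 intervals span 0, and the circles of CASP2, CASP6 and XIAP fall on both sides of it.

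Over the 5 tested genes, 3 had a log2 fold change above 0 and 2 below, with a median of 0.36, while library totals alone gave 1 above and 4 below with a median of −0.11. The same quantities over all tested genes were 4974 above, 5704 below and −0.08 with TMM, and 3585, 7093 and −0.33 with library totals. Without both replicate 3 libraries the 5 genes split 2 to 3, with a median of −0.02. The fold changes were loosely bounded, with a biological coefficient of variation of 1.104 over all genes. The narrowest 95% interval among the 5, that of XIAP, ran from −1.82 to 2.98.

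Shares of the 5 genes in their summed counts do not depend on how libraries are scaled. A longer transcript collects more counts, so a share is comparable between libraries for 1 gene and not between genes. CASP6 made up 49.9%, 52.3% and 83.2% of the summed counts in malathion replicates 1, 2 and 3, against 44.8%, 23.1% and 71.2% in control replicates 1, 2 and 3. In each pair the malathion library had the larger CASP6 share, beyond the Wilson 95% counting intervals, and over all libraries the groups overlapped. Shares of a sum are bound together, so a larger share need not mean a higher level. In replicate 1 the CASP6 level was lower in malathion, at 36.7 against 40.8 CPM. CASP2, AIFM1 and XIAP lay lower there too, and APAF1 higher. AIFM1 made up 4.21%, 10.1% and 0.0498% in malathion replicates 1, 2 and 3, against 10.9%, 19.5% and 2.44% in control replicates 1, 2 and 3. CASP2 and APAF1 had their largest shares in control replicate 2, at 25.98% and 21.5%. The number of CASP6 counts per XIAP count was 2.74, 4.33 and 8.90 in malathion replicates 1, 2 and 3 and 2.08, 2.31 and 8.57 in control replicates 1, 2 and 3. That ratio was higher in the malathion library of each pair. Its step between replicate 3 and the other libraries was larger than the step between malathion and control within any pair. Counts of APAF1 per CASP2 count were also higher in malathion in each pair. CASP6 per CASP2 was lower in malathion in replicate 1, at 3.45 against 3.60, and higher in replicates 2 and 3. AIFM1 per CASP2 was higher in malathion in replicate 2 and lower in replicates 1 and 3. How often other gene pairs run 1 way in each pair was not counted.

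**Figure D4:**
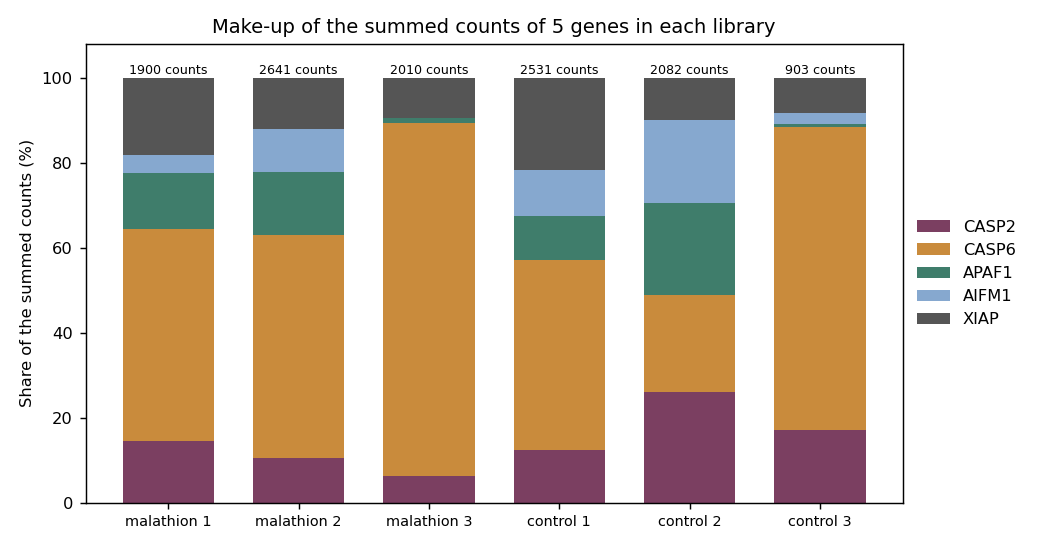
Share of each gene (colours, vertical axis in percent) in the summed counts of the 5 tested genes, by library, malathion on the left and control on the right, with the summed counts above the bars. CASP6 takes 83.2% in malathion replicate 3 and 71.2% in control replicate 3, and APAF1 shrinks to 1.14% and 0.886% there.

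Other genes tracked each of the 5 across the libraries. By Pearson's r of log2 CPM over the 6 libraries, among 4718 genes that had a symbol and averaged 10 CPM or more, the gene most like CASP2 was RPS4X (r = 0.999), the most like APAF1 was SPRTN (r = 0.9999) and the most like AIFM1 was DCLK2 (r = 0.996). For XIAP it was TRIM33 (r = 0.991) and for CASP6 it was PPP2R1B (r = 0.957). These values describe 6 libraries, of which 2 stand apart from the others with fewer genes detected. An r above 0.9 was reached by 3375 of the 4718 genes for APAF1, 1673 for AIFM1, 1595 for CASP2, 984 for XIAP and 9 for CASP6. RPS4X, a ribosomal protein gene whose counts may be split with processed copies, stood at 10.4, 11.1 and 0.0945 CPM in malathion replicates 1, 2 and 3 and at 13.6, 105 and 0.916 CPM in control replicates 1, 2 and 3. PPP2R1B, a phosphatase subunit, lay between 736 and 894 CPM in malathion libraries and between 619 and 872 CPM in control libraries.

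Some other caspases were listed too. CASP1 and CASP14, of inflammation and skin, had 0 counts in every library, and CASP10, a relative of CASP8, had 1 count in control replicate 2 and 0 elsewhere.

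None of the 37 tested genes of the 4 pathway lists passed the test in either direction, and OTUB1 was the only one with an unadjusted p under 0.05. For release from mitochondria and the apoptosome, 2 of 7 tested genes had values above 0 and 5 below (median log2 fold change −0.42, and −0.40 without both replicate 3 libraries). Without control replicate 2 the median was 0.07, against 0.22 over all tested genes. CHCHD4, the import factor that works with AIFM1, stood at 7.32, 11.8 and 0.118 CPM in malathion replicates 1, 2 and 3, against 9.86, 68.5 and 0.780 CPM in control replicates 1, 2 and 3 (log2 fold change −1.75 ± 1.16, SE). That value was −1.59 without both replicate 3 libraries and −0.75 without control replicate 2. Like AIFM1 it lay lower in the malathion library of each pair, as did 14.6% of tested genes, and the groups overlapped. APIP, an APAF1-interacting protein and enzyme of methionine salvage, stood at 58.7, 34.4 and 0.756 CPM in malathion replicates 1, 2 and 3, against 37.5, 26.01 and 0.136 CPM in control replicates 1, 2 and 3 (log2 fold change 0.88 ± 1.11, SE). The fold change of APIP was 0.76 without both replicate 3 libraries, and leaving out 1 library gave 0.20 without malathion replicate 1 to 1.83 without control replicate 1. It lay higher in the malathion library of each pair, as did 726 tested genes, or 6.8%.

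For the death receptor route, 1 of 10 tested genes was above 0 and 9 below (median log2 fold change −0.73). There were 3 above and 7 below without both replicate 3 libraries (−0.82), and 2 above and 8 below without control replicate 2 (−0.35). Over all tested genes 4974 were above 0 and 5704 below. Those splits were 5091 and 5584 without both replicate 3 libraries, and 6722 and 3956 without control replicate 2. TRAF3, an adaptor of tumour necrosis factor receptors, stood at 4.92, 4.07 and 0.118 CPM in malathion replicates 1, 2 and 3, against 4.82, 26.2 and 0.882 CPM in control replicates 1, 2 and 3 (log2 fold change −1.76 ± 1.24, SE). TRAF1, a related adaptor, had 12, 6 and 0 counts in malathion replicates 1, 2 and 3, against 26, 70 and 0 counts in control replicates 1, 2 and 3 (−1.84 ± 1.51, SE). Both genes were highest in control replicate 2, and their groups overlapped. Without both replicate 3 libraries TRAF3 had −1.33 and TRAF1 −1.95. Leaving out 1 library gave −2.14 to −1.41 for TRAF3 and −2.75 to −1.09 for TRAF1, lowest without control replicate 1 for TRAF3 and without malathion replicate 1 for TRAF1, and highest without control replicate 2 for both.

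Among other inhibitors of apoptosis and their regulators, 3 of 7 tested genes were above 0 and 4 below (median log2 fold change −0.16, and 0.05 without both replicate 3 libraries). Leaving out 1 library moved that median to between −1.06 without malathion replicate 3 and 0.31 without control replicate 3. OTUB1, a deubiquitinase known to act on an inhibitor of apoptosis protein, stood at 24.02, 30.4 and 0.331 CPM in malathion replicates 1, 2 and 3, against 24.4, 394 and 3.36 CPM in control replicates 1, 2 and 3. Control replicate 2 stood far above the other libraries, and the log2 fold change of −2.56 ± 1.13 (SE, edgeR adjusted p = 0.9998, unadjusted p = 0.0394) came to −1.05 without it and −2.44 without both replicate 3 libraries. BIRC5, or survivin, which also serves the chromosomal passenger complex, stood at 86.1, 85.3 and 0.355 CPM in malathion replicates 1, 2 and 3, against 82.3, 289 and 0.679 CPM in control replicates 1, 2 and 3. Its log2 fold change was −0.73 ± 1.16 (SE), −0.71 without both replicate 3 libraries, and 0.29 without control replicate 2, where the median over all tested genes was 0.22.

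Of caspase substrates and nucleases, 9 of 13 tested genes were above 0 and 4 below (median log2 fold change 0.16), but 3 were above and 10 below with library totals alone (−0.29) and 4 and 9 without both replicate 3 libraries (−0.09). LMNB1, a nuclear lamin, stood at 4.38, 17.7 and 0.260 CPM in malathion replicates 1, 2 and 3, against 8.71, 16.4 and 5.02 CPM in control replicates 1, 2 and 3. The groups overlapped, and the log2 fold change of −2.05 ± 1.19 (SE) came to 0.06 without both replicate 3 libraries, −0.22 without control replicate 3 and −2.92 without malathion replicate 2. BAG3, a co-chaperone cleaved by caspases, stood at 1.70, 3.49 and 3.14 CPM in malathion replicates 1, 2 and 3, against 2.59, 3.98 and 0 CPM in control replicates 1, 2 and 3. Malathion replicate 3 held 84.2% of its normalised CPM and control replicate 3 none, and the log2 fold change of 3.37 ± 1.61 (SE) came to 0.40 without malathion replicate 3 and −0.09 without both replicate 3 libraries. Of the 46 genes of the 4 lists found in the files, 39, 41 and 31 were detected in malathion replicates 1, 2 and 3, against 41, 41 and 28 in control replicates 1, 2 and 3.

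**Figure D5:**
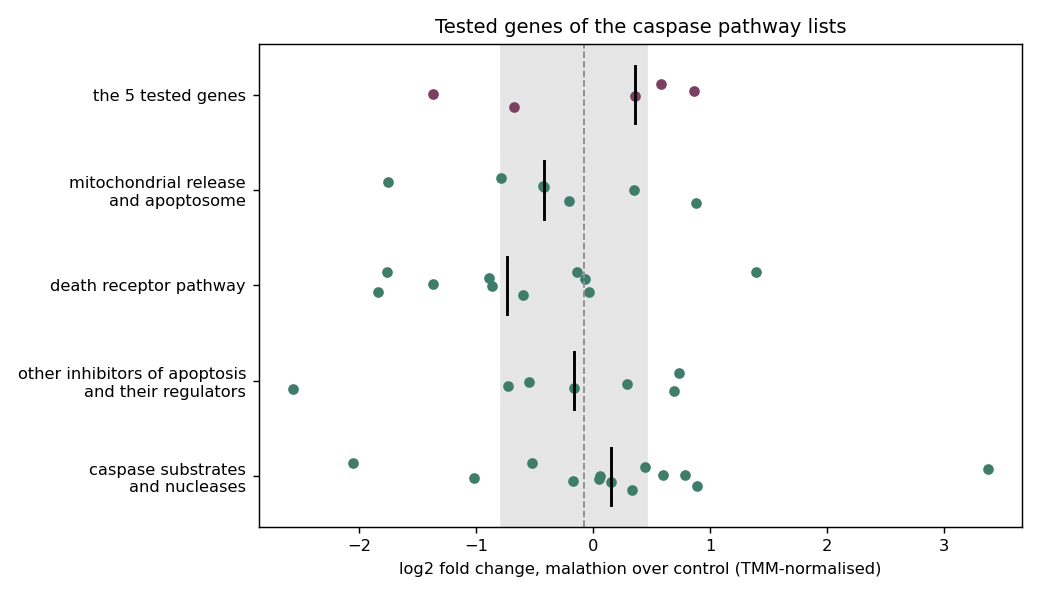
Log2 fold change, malathion over control on TMM-normalised counts (horizontal axis), of each tested gene (points) by list, with the median of each list as a black bar. The grey band spans the middle 50% of all tested genes, from −0.78 to 0.46, and the dashed line is their median, −0.08; the medians of the lists lie between −0.73 and 0.36.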

How the data were processed

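RNA-seq was deposited as 1 file of read counts per library, per the labels, with 3 malathion and 3 control libraries grouped by title. The deposited counts are raw, and the submitters' processing notes name HTSeq 0.9.1, STAR 2.5.3a and DESeq2 1.20.0. The genome build, annotation and strand setting are not given in the sources used here. There were 25880 gene rows and 5 summary rows a file, which held 36.7% to 42.6% of the reads and were left out. A name table gave symbols to 14857 identifiers (57.4%). The members and lists were chosen with earlier results of these data known.

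CPM are counts scaled to a gene-row sum of 1000000. Malathion was compared with control in edgeR 4.0.16 (R 4.3.3, limma 3.58.1), with TMM factors, filterByExpr (minimum count 10, minimum total 15), the two-sided quasi-likelihood F test and Benjamini-Hochberg adjustment. Standard errors derive from the F statistic, and intervals are at 95%. Pair ratios and likeness use log2 CPM with a prior count of 2. Alternatives were library totals, DESeq2 1.42.0, limma-voom, no filter, a replicate block and leaving out libraries. The genes named were all members, the 1 gene most like each tested member, and the 2 members of each list with the smallest p. Results of some listed genes are not reported here.

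Replicate numbers are shared by both groups. Across genes, libraries with the same number deviated together from the mean of their group, at r = 0.466, 0.467 and 0.573 for replicates 1, 2 and 3. These r cannot show a pairing, since libraries of different number were not compared this way and both replicate 3 libraries stand apart. In log2 CPM, malathion replicates 1 and 3 correlated best with the control of their number (r = 0.95 and 0.811). Malathion replicate 2 correlated best with control replicate 1 (r = 0.972, against 0.844 with control replicate 2). No label gives a pairing, so pairs here are only libraries of the same number. Wilson 95% intervals of a member's CPM reached from 4.79% to 22.8% of the value on either side for values of 75 counts or more, and from 36.4% for fewer. Intervals and limits hold for counting error alone, because reads copied by PCR are not separate molecules.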

Additional observations from a re-analysis of the deposited data

How the results depend on the processing

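No alternative called any of the 5 tested genes. The count of genes called over all genes was 0 in 9 of the 12 alternatives, 60 without the filter on low counts, and 0 to 3 when leaving out 1 library (3 without malathion replicate 1 and 3 without malathion replicate 2). Of 60 values of the 5 genes under alternatives, 6 had the other sign. With library totals alone these were APAF1 at −0.11 and XIAP at −0.0283, and without both replicate 3 libraries XIAP at −0.0215. Leaving out 1 library gave −1.86 to 0.94 for CASP2, −1.73 to 3.27 for CASP6, 0.09 to 0.61 for APAF1, −2.48 to −0.84 for AIFM1 and −0.85 to 1.43 for XIAP, and −0.85 to 0.94 for their median, which was lowest without malathion replicate 3 and highest without control replicate 3. The cause was not tested. With the replicate number as a block, the log2 fold changes were −0.46 for CASP2, 0.91 for CASP6, 0.42 for APAF1, −1.83 for AIFM1 and 0.46 for XIAP (edgeR adjusted p = 0.9994 each). This block changed no call, with 0 genes called and 120 at an unadjusted p under 0.05. DESeq2 gave CASP6 no p. Depth limits CASP8 and CASP9, with at most 30 and 12 counts in a library.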
